A study of Mus musculus with 6 samples.

Results

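Short lncRNA loci are those whose genomic span, the end minus the start of the locus in mm9 coordinates, is under 2000 bp. Of the 3307 long non-coding RNA (lncRNA) loci in the tables, 309 (9.34%) met this limit and had coordinates listed only once, while 4 further loci under 2000 bp were left out because another row carried the same coordinates. No expression value entered the choice. The RNA came from C57BL/6 mouse zygotes at the pronucleus stage, in 3 control libraries (normal gravity) and 3 libraries labelled micro-gravity (simulated microgravity), all made from cDNA of frozen zygotes in lysis buffer. How microgravity was produced, for how long and with how many zygotes a library is not stated in the labels. Titles give the 3 libraries of a group the same prefix, so separate pools of embryos are not documented. The p-values therefore reflect library-to-library spread only, and that spread may be technical. Values are RPKM, that is, reads divided by transcript length and by the size of the library. They summed to between 892582 and 928980 per library, and the median over all loci lay between 70.4 and 74.7 RPKM. Sequencing depth is unknown.

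A lncRNA is a transcript that is not translated into a protein. Some lncRNAs act in place on chromatin or neighbouring genes, as Xist does on the X chromosome, and many are transcribed at low levels with no known role. The zygote at the pronucleus stage relies largely on RNA stored in the oocyte, while transcription from its own genome is only beginning. A locus with a small span can hold a transcript with no intron or with very short introns. Because RPKM divides by transcript length, 1 read adds more RPKM to a short transcript than to a long one. The tables give an assembly identifier (XLOC) and coordinates but no gene name, exon structure or strand, so the markers of the zygote could not be checked and the loci are named by identifier.

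Short loci had lower levels than longer ones in every library, but a like share of them reached 1000 RPKM. Their span ran from 402 to 1994 bp with a median of 1436 bp. Median levels of the short loci were 42.7, 44.9 and 45.6 RPKM in control and 46.7, 46.2 and 45.0 RPKM in microgravity, against 71.8 to 76.0 RPKM for the 2701 longer loci whose coordinates were listed once. The control mean of these medians was 44.4 ± 1.52 RPKM (SD, n = 3) and the microgravity mean 46.0 ± 0.854 (SD, n = 3), and the 2 groups overlapped. Averaged over the 6 libraries, the middle 50% of short loci lay between 26.0 and 101 RPKM, and the full range was from 6.02 to 7448 RPKM. Below 2000 bp the level did not follow span: the median of the 6-library means was 43.4 RPKM for the 68 loci under 1000 bp, 46.0 RPKM for the 106 loci of 1000 to under 1500 bp and 39.7 RPKM for the 135 loci of 1500 to under 2000 bp. Above it the median was 59.9 RPKM at 2000 to under 10000 bp, 82.1 RPKM at 10000 to under 50000 bp and 130 RPKM at 50000 bp or more. Loci are not replicates, and these levels were not tested between classes.

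**Figure D1:**
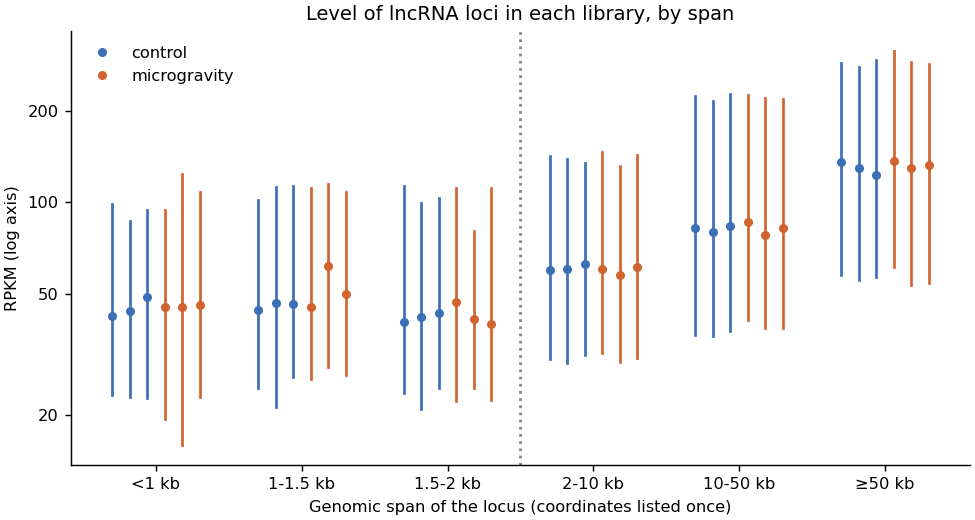
Median (point) and middle 50% (bar) of RPKM in each library, on a log axis, for loci grouped by genomic span, with control in blue and microgravity in orange. Left of the dotted line are the short loci, whose library medians as 1 set ran from 42.7 to 46.7 RPKM, and right of it the longer loci.

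Short loci crowded the lower range without being missing from the upper one. Mean levels were under 100 RPKM at 227 short loci (73.5%) and at 59.4% of longer loci. Divided by mean level into tertiles of all tested loci (limits 43.6 and 129 RPKM), 158 short loci (51.1%) fell in the lowest, a further 88 (28.5%) were middle and 63 (20.4%) highest. At the upper end 17 short loci (5.50%) had a mean of 1000 RPKM or more, compared with 4.89% of longer loci. The median level inside the highest tertile was 397 RPKM for short loci and 303 RPKM for longer ones. Summed RPKM was concentrated accordingly: the 10 most abundant short loci held 52.6% of the total of the 309, and the 17 at 1000 RPKM or more held 65.5%. Short loci took 8.71%, 8.67% and 8.82% of the summed RPKM of the control libraries and 8.30%, 8.33% and 8.88% in microgravity, so microgravity replicate 3 lay above all control libraries and the other two below. The mean difference was -0.232 percentage points (control 8.73 ± 0.0807, microgravity 8.501 ± 0.329; SD, n = 3). By span it was 0.103 under 1000 bp, 0.104 at 1000 to under 1500 bp and -0.439 at 1500 to under 2000 bp. A few abundant loci weigh heavily here. The summed RPKM of short loci differed by -1209 RPKM, and XLOC_000935 alone had means of 8031 RPKM in control and 6865 RPKM in microgravity. RPKM is divided by transcript length, so shares of summed RPKM are not shares of reads.

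The most abundant short locus, XLOC_000935 on chromosome 1 (60760756 to 60762403, mm9), ranked 8 among all 3307 loci. It had 8549, 7941 and 7602 RPKM in control and 6692, 5500 and 8403 RPKM in microgravity, where replicate 3 lay inside the control range. XLOC_021937 on chromosome 4 (142979302 to 142980136) spans only 834 bp and ranked 11, with 4738, 5178 and 6867 RPKM in control and 4752, 5807 and 6913 in microgravity. The groups covered nearly the same range there. XLOC_000531 on chromosome 1 (155063862 to 155065829) had 5204, 6254 and 5497 RPKM in control and 5607, 5635 and 5584 RPKM in microgravity. Its microgravity values (SD 25.9 RPKM) lay closer to one another than the control values (SD 542 RPKM) and inside their range. XLOC_008513 on chromosome 13 (62914495 to 62916375) followed with 6378, 6320 and 5640 RPKM in control and 5169, 4857 and 5079 in microgravity. Here every microgravity value lay below every control value.

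The next 6 had means from 2330 to 3252 RPKM. XLOC_028740 on chromosome 8 (13817583 to 13818428), 845 bp in span, had 3268, 2695 and 3459 RPKM in control and 3162, 4344 and 2586 RPKM in microgravity, which enclosed the control values. XLOC_031688 on chromosome 9 (109564547 to 109566059) had 3703, 3646 and 3482 RPKM in control and 3284, 2558 and 2259 RPKM in microgravity, with no overlap. XLOC_021084 on chromosome 4 had means of 3108 ± 642 and 2716 ± 594 RPKM (SD, n = 3; control, then microgravity). The rest were XLOC_001248 on chromosome 1 (2531 ± 167 and 2813 ± 263 RPKM; SD, n = 3), XLOC_005562 on chromosome 11 (2424 ± 55.2 and 2263 ± 259 RPKM; SD, n = 3) and XLOC_015152 on chromosome 18 (2402 ± 385 and 2259 ± 152 RPKM; SD, n = 3). In these last 4 loci the ranges of the 2 groups overlapped.

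Zeros were more frequent among short loci, most of all under 1000 bp. In a given library 6 to 12 short loci (1.94% to 3.88%) were listed at 0, against 0.518% to 1.33% of the longer loci, and the share was higher among short loci in each of the 6 libraries. The control libraries had 8, 10 and 6 short loci at 0 and the microgravity libraries 6, 12 and 6, a mean of 8 in both groups. In total 34 short loci (11.0%) were at 0 in at least 1 library and 275 in none, whereas 3.70% of longer loci had a zero. By span the share was 23.5% under 1000 bp, 8.49% at 1000 to under 1500 bp and 6.67% at 1500 to under 2000 bp. Within the lowest tertile the shortest class had the highest share of the 6 span classes: 41.2% of the 34 loci under 1000 bp had a zero, 13.5% and 12.5% in the next 2 classes and 11.2% of longer loci. Among those, loci of 50000 bp or more reached 20.3%, above the short loci of 1000 bp and over. In the middle tertile 4 of 88 short loci had a zero (4.55%), compared with 1 of 919 longer loci (0.109%), and in the highest 0 of 63. Levels and zeros come from the same values, so the tertiles hold them apart only in part.

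A zero did not mean a uniformly low locus. Of the 34, 31 reached 30 RPKM or more in some other library and 5 reached 100 RPKM. Zeros occurred only in control libraries at 12 loci, only in microgravity at 14 and in both at 8. XLOC_029320 on chromosome 8, the member with the most zeros and the one short locus below the filter for testing (at least 1 RPKM in 3 libraries), had 6.34 RPKM in control replicate 3, 42.2 RPKM in microgravity replicate 1 and 0 in the other 4 libraries. Next came 3 loci with 3 zeros each. The first was XLOC_015138 (chromosome 18, 629 bp), which had 34.1 RPKM in control replicate 3 and, in microgravity replicates 1 and 3, 2.92 and 8.76 RPKM. XLOC_021246 (chromosome 4, 1745 bp) had 8.20 RPKM in control replicate 1 and 53.1 and 21.1 RPKM in microgravity replicates 2 and 3. All 3 of these loci were listed at 0 in libraries of both groups. XLOC_009528 (chromosome 14, 598 bp) had 25.8 and 53.4 RPKM in control replicates 1 and 2 and 23.9 RPKM in microgravity replicate 1. XLOC_000904 (chromosome 1, 1513 bp), which has the lowest mean of the 5 loci tied at 2 zeros, had 45.1, 14.1 and 0 RPKM in control and 4.64, 3.89 and 0 RPKM in microgravity.

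Libraries of the same group differed more at short loci than at longer ones. The within-group standard deviation (SD) of log2(RPKM + 1), pooled over both groups, had a median of 0.52 over short loci and 0.37 over longer loci. The gap was smaller within tertiles of level. In the lowest tertile the median SD was 0.76 for short and 0.68 for longer loci (0.80 for those of 50000 bp or more), in the middle 0.44 and 0.39, and in the highest 0.25 and 0.23. Loci under 1000 bp stood above the rest in every tertile, with 1.12, 0.60 and 0.28. Among the loci above 0 in all 6 libraries, a restriction added after the values were seen, the medians were 0.47 for 275 short loci and 0.36 for 2601 longer loci, and in the lowest tertile 0.79 for 20 loci under 1000 bp against 0.61 for longer loci. How far counting of few reads contributes was not tested, since reads per locus are unknown.

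**Figure D2:**
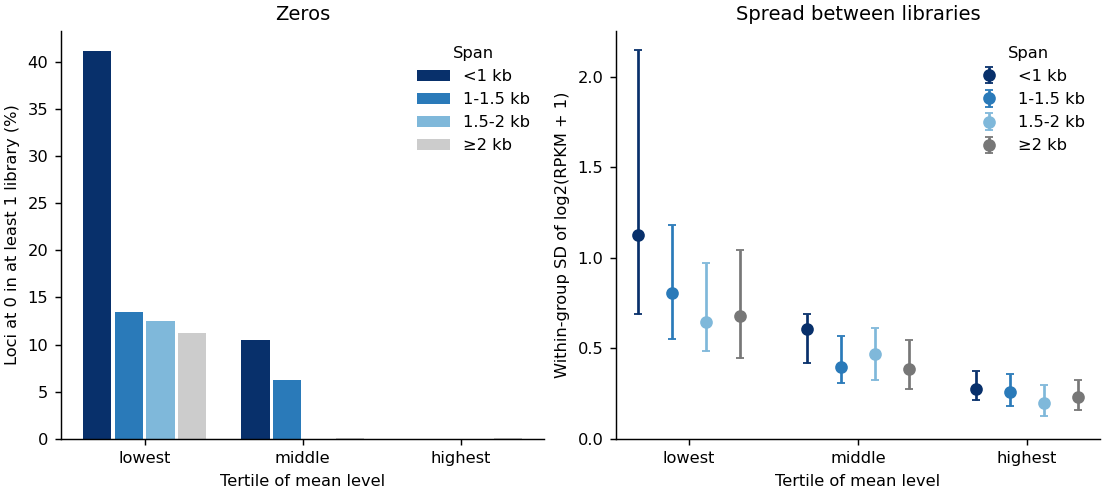
Left, the percentage of loci at 0 in at least 1 library, and right, the median (point) and middle 50% (bar) of the within-group SD of log2(RPKM + 1), by tertile of mean level and by span. Loci under 1000 bp stand highest in the lowest tertile, with 41.2% zeros and a median SD of 1.12.

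The levels of short loci were correspondingly less alike between libraries. Pearson's r of log2(RPKM + 1) across the 309 loci, which do not count as replicates, lay at 0.808 to 0.820 for pairs of control libraries, 0.752 to 0.833 for pairs of microgravity libraries and 0.757 to 0.849 across the groups. The same ranges for longer loci were 0.887 to 0.893, 0.880 to 0.893 and 0.847 to 0.895. At short loci the lowest value across the groups (0.757) lay below all control pairs and just above the lowest microgravity pair. In the highest tertile the short loci correlated at 0.935 to 0.975 over the 15 pairs, in the middle tertile at -0.21 to 0.54 and in the lowest at 0.0785 to 0.377. Longer loci gave 0.914 to 0.959, 0.273 to 0.468 and 0.108 to 0.337, and a narrow range of levels lowers r by itself.

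The 5 short loci with the largest within-group SD were each listed at 0 in at least 1 library. XLOC_015837 on chromosome 19 (40963008 to 40964436) had an SD of 4.28 on the log2 scale, with 0, 274.5 and 88.4 RPKM in control replicates 1 to 3 and 0, 277 and 78.5 RPKM in microgravity replicates 1 to 3. Its 2 groups covered almost the same values, and the spread lay between libraries of the same group. XLOC_014499 on chromosome 18 had 64.8, 2.60 and 83.9 RPKM in control and 15.4, 133 and 0 RPKM in microgravity (SD 3.08). XLOC_015132 on the same chromosome had 0, 120 and 58.4 RPKM in control and 31.9, 68.6 and 10.6 RPKM in microgravity (SD 2.80). The others were XLOC_009528, described above (SD 2.88), and XLOC_019574 on chromosome 3, with 13.2, 67.6 and 0 RPKM in control and 12.1, 0 and 6.01 RPKM in microgravity (SD 2.57). None of the 5 separated the groups.

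The 5 shortest loci, from 402 to 442 bp, included both stable and unstable ones. XLOC_009779 (442 bp, chromosome 14) had 335, 487 and 379 RPKM in control and 371, 231 and 273 RPKM in microgravity. XLOC_029773 (428 bp, chromosome 8) had 136, 159 and 42.6 RPKM in control and 55.6, 88.0 and 55.2 RPKM in microgravity. Both were above 0 throughout. The remaining 3 were each at 0 in 1 library: XLOC_002871 (402 bp, chromosome 10) in microgravity replicate 1, XLOC_019532 (426 bp, chromosome 3) in control replicate 2 and XLOC_032559 (438 bp, chromosome X) in control replicate 3. Elsewhere they ranged from 32.3 to 84.1, from 16.1 to 40.4 and from 6.15 to 41.0 RPKM respectively. XLOC_002871 was thus listed above 30 RPKM in 5 libraries and at 0 in the other.

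The design compares lncRNA profiles of zygotes under 2 gravity conditions, and at short loci no difference passed the adjusted threshold. Of 309 loci, 308 were tested within a model fitted to all 3301 loci that passed the filter. None was called at an adjusted p under 0.05 (limma, lowest adjusted p = 0.327 among short loci), as over the whole table, where 0 loci (0%) were called. At an unadjusted p under 0.05, 28 short loci (9.09%) differed, next to a background of 7.91% of all loci. With trend and robust moderation switched off in limma, 0 were called and 27 (8.77%; all loci 7.45%) passed the unadjusted limit. Among the 28, 16 (5.19%) had higher values in microgravity against a background of 4.82%, and 12 (3.90%) lower values against 3.09%. These shares lie close to the background. The direction was not stable: after median scaling of the libraries the split was 13 higher and 16 lower, and without control replicate 3 it was 17 and 7. Short loci at unadjusted p under 0.05 were then 9.42% and 7.82%, against 8.27% and 7.77% of all loci.

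Differences at short loci were wide but centred on 0. The log2 difference of microgravity from control, on the log2(RPKM + 1) scale that understates changes at low levels, had a median of 0.019 over the 308 short loci and -0.0037 over all loci. It was above 0 at 157 of the 308 (51.0%), compared with 49.7% of all loci, and the median of short loci was -0.012 after median scaling and -0.025 without control replicate 1. The middle 50% lay between -0.27 and 0.41. A difference of at least 2-fold in either direction was seen at 48 short loci (15.6%), against 8.57% of all loci. Of the loci at unadjusted p under 0.05, 18 short ones (5.84%) also reached 2-fold, where the background was 2.73%. Short loci have more members in the lowest tertile and larger SDs, and the part of these in the wider differences was not tested.

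**Figure D3:**
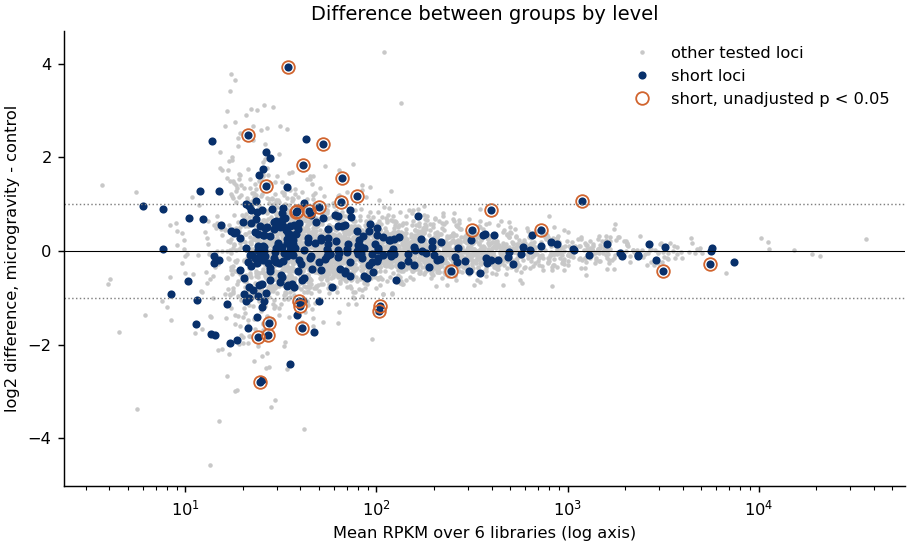
Log2 difference between microgravity and control for each tested locus against its mean RPKM over 6 libraries (log axis), with short loci in dark blue, other loci in grey and the 28 short loci at unadjusted p under 0.05 ringed. Dotted lines mark 2-fold, and of the ringed loci 13 lie in the lowest tertile of level, 8 in the middle and 7 in the highest. These are 8.28%, 9.09% and 11.1% of the short loci tested there, against 5.73%, 8% and 9.99% of all loci.

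The groups did not overlap at 46 of the 308 short loci (14.9%), next to 13.6% of all loci tested. Microgravity was higher at 25 (8.12%; background 7.39%) and lower at 21 (6.82%; background 6.24%). With 1 library left out the criterion is looser, and the count was 72 and 82 without control replicates 2 and 3, 87 and 79 without microgravity replicates 1 and 3, and 66 and 69 without control replicate 1 and microgravity replicate 2. The share of short loci was then 21.4% to 28.2%, and that of all loci, by the same criterion, 22.7% to 26.7%.

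Among the short loci with higher values in microgravity, XLOC_017424 on chromosome 2 (8378858 to 8379485) had the smallest p. Its values were 257, 262 and 325 RPKM in control and 510, 606 and 436 RPKM in microgravity. The log2 difference was 0.87 ± 0.18 (SE; limma, adjusted p = 0.327). All 3 microgravity libraries lay above all 3 controls, as they did at the next 4 loci by p. The loci were picked by p in these same values, so this separation is no separate support. XLOC_000399 on chromosome 1 (117283481 to 117284239) had 27.2, 6.31 and 25.1 RPKM in control and 61.9, 97.5 and 98.7 RPKM in microgravity, 2.28 ± 0.52 higher on the log2 scale (SE; adjusted p = 0.493, limma). It lies 2904865 bp from the nearest other listed locus, the largest such distance among short loci. XLOC_005454 on chromosome 11 (102277617 to 102278647), one of the 17 loci at 1000 RPKM or more, had 873, 480 and 978 RPKM in control and 1235, 1524 and 2030 RPKM in microgravity. Its log2 difference was 1.07 ± 0.26 (SE; limma, adjusted p = 0.493).

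XLOC_025693 on chromosome 6 (65896234 to 65896926) had 31.4, 46.7 and 50.3 RPKM in control and 90.1, 72.6 and 101.5 RPKM in microgravity. XLOC_009391 on chromosome 14 (32500454 to 32502416) had 47.3, 68.3 and 31.4 RPKM in control and 148, 82.9 and 97.6 RPKM in microgravity. The log2 differences of these 2 loci were 1.04 and 1.17 (limma, adjusted p = 0.498 for both). XLOC_030746 on chromosome 9 (44545477 to 44546961) had 27.2, 8.10 and 15.2 RPKM in control and 24.1, 95.6 and 76.2 RPKM in microgravity, a log2 difference of 1.83 (limma, adjusted p = 0.586). Its groups overlapped, since microgravity replicate 1 lay below control replicate 1. The largest log2 difference of any short locus, 3.94 at XLOC_010063 on chromosome 14, falls outside the rule for naming and was picked after its values were seen. It had 0, 0 and 40.5 RPKM in control and 41.1, 83.1 and 40.9 RPKM in microgravity, so the groups were kept apart by under 1 RPKM and the size of the difference depends on the zeros and the pseudocount.

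Among the short loci with lower values in microgravity, XLOC_012471 on chromosome 16 (38009088 to 38010891) had the smallest p. It had 135, 161 and 130 RPKM in control and 106, 30.5 and 58.1 RPKM in microgravity, and differed by -1.29 ± 0.39 on the log2 scale (SE; adjusted p = 0.498, limma). The next 2 by p were among the most abundant short loci: XLOC_031688, at -0.44 ± 0.13 (log2, SE; adjusted p = 0.510 by limma), and XLOC_008513, at -0.28 ± 0.092 (log2, SE; adjusted p = 0.586 by limma). These are small differences at loci with little spread. XLOC_031144 on chromosome 9 (118823201 to 118824575) had 44.9, 43.9 and 35.1 RPKM in control and 22.8, 6.22 and 9.33 RPKM in microgravity. XLOC_021322 on chromosome 4 (152413545 to 152414478) had 122, 180 and 120 RPKM in control and 110, 64.4 and 31.0 RPKM in microgravity. The groups did not overlap at any of these 5 loci, which were likewise picked by p in these same values. XLOC_001169 on chromosome 1 (135662650 to 135663442) had 45.9, 58.3 and 71.3 RPKM in control and 12.0, 9.34 and 48.5 RPKM in microgravity, where replicate 3 lay inside the control range. The log2 differences of the last 3 were -1.80, -1.18 and -1.64 (limma, adjusted p = 0.586 for each).

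**Figure D4:**
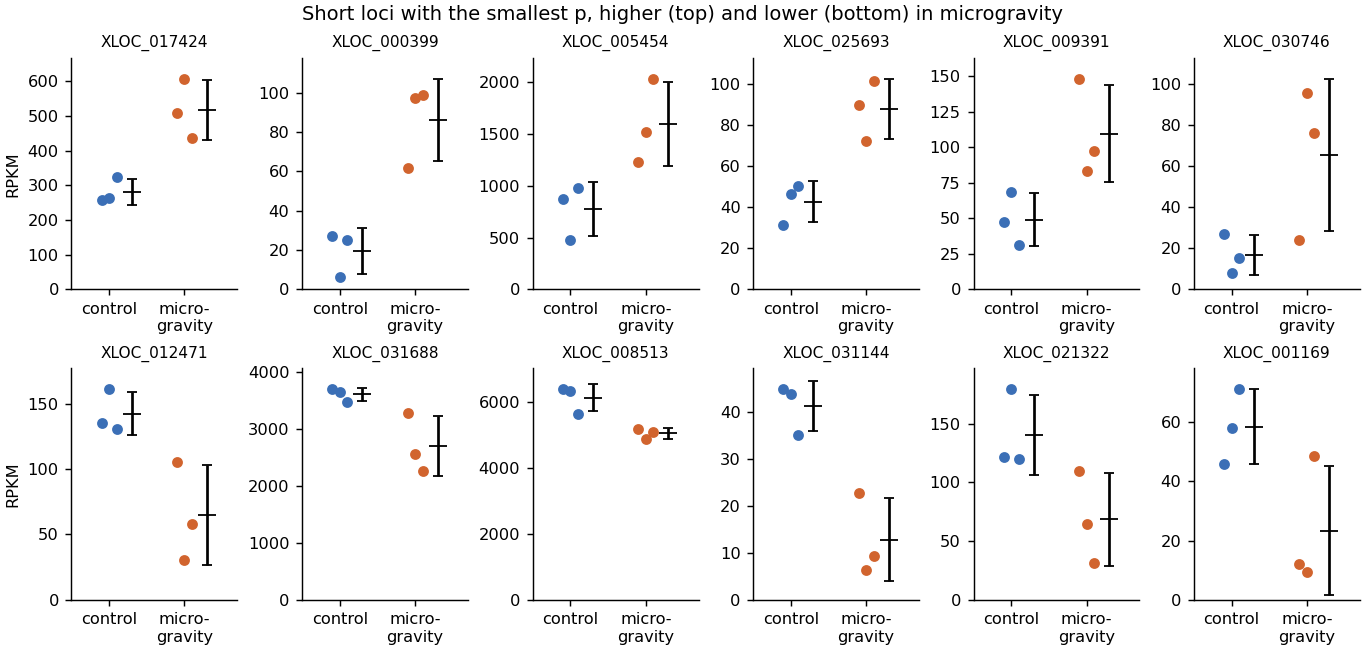
RPKM in each library (points; control blue, microgravity orange) with mean and SD (black, n = 3) for the 6 short loci of smallest p on either side. The groups do not overlap at 10 of the 12, the exceptions being XLOC_030746 and XLOC_001169. The 12 were picked by p in these same values, so this separation is no separate support. Over all loci tested the groups did not overlap at 13.6%. None of the 12 had an adjusted p below 0.327 (limma).

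For the abundant short loci the data bound the difference more closely. The 95% confidence interval of the log2 difference lay within 2-fold in both directions at 103 of 308 short loci (33.4%), against 48.0% of all loci tested, and within 1.5-fold at 27. Of the 17 loci at 1000 RPKM or more, 16 were within 2-fold and 13 within 1.5-fold. XLOC_005454 was the exception at 2-fold, with an interval from 0.51 to 1.64. The interval ran from -0.22 to 0.20 at XLOC_000531 and from -0.36 to 0.15 at XLOC_005562. By tertile, 58 of 63 short loci in the highest (92.1%), 41 of 88 in the middle (46.6%) and 4 of 157 in the lowest (2.55%) were bounded within 2-fold, compared with 90.1%, 48.3% and 5.63% of longer loci. For most short loci in the lowest tertile the interval thus reached past 2-fold on at least 1 side. Under 1000 bp, 2 of 19 loci in the middle tertile were bounded. Each interval holds for 1 locus and rests on the spread between these libraries.

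Short loci were listed on all 20 chromosomes (the autosomes and X) in unequal shares. Chromosome 1 held the most, 34 of its 245 listed loci (13.9%), followed in share by chromosome 15 with 20 of 149 (13.4%), chromosome 14 with 17 of 139 (12.2%) and chromosome 2 with 24 of 198 (12.1%). The lowest shares were on chromosomes 5 (11 of 211, 5.21%) and 4 (12 of 198, 6.06%). Chromosome X had 9 of 108 (8.33%), with a median level of 80.0 RPKM, the highest of the 20, and chromosome 3 had the lowest, 29.5 RPKM over 17 loci. Summed RPKM was spread less evenly than the loci: chromosome 1 carried 24.1% of the summed RPKM of short loci, chromosome 4 11.7% and chromosome 13 11.5%, and the most abundant short locus on each had a mean of 7448, 5709 and 5574 RPKM. Short loci with a zero were most numerous on chromosomes 10, 14 and 18, with 4 each, and there were 0 on chromosomes 5, 7, 11, 16 and 17.

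By chromosome, the median log2 difference of short loci was lowest on chromosome 14 (-0.24 over 17 loci) and highest on chromosome 2 (0.34 over 24 loci). On chromosome 2 the difference was above 0 at 17 of 24 short loci, while the median over all 198 loci of that chromosome was -0.015. The short-locus median there stayed between 0.25 and 0.44 with any 1 library left out and was 0.31 after median scaling. Only 1 of these loci, XLOC_017424, had higher values at an unadjusted p under 0.05. Chromosome 2 was singled out by its median in these same values, and loci are not replicates, so its stability is no separate support. On chromosomes 6 (0.11 to 0.19), 8 (-0.21 to -0.038), 13 and 15 the median also kept its sign with any 1 library left out. On the other chromosomes the sign changed. On chromosome 14 the difference was above 0 at 8 of 17 short loci, so the median was the negative value nearest 0. It moved to between -0.091 and 0.12 whichever library was left out. On chromosome 1, of 34 short loci tested, 2 had higher and 3 had lower values at unadjusted p under 0.05 (limma). Over all loci tested the shares were 4.82% higher and 3.09% lower. On chromosomes 7, 8, 10, 12 and 18, with 10 to 21 short loci tested on each, there were 0 in either direction. Such small counts do not set chromosomes apart.

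**Figure D5:**
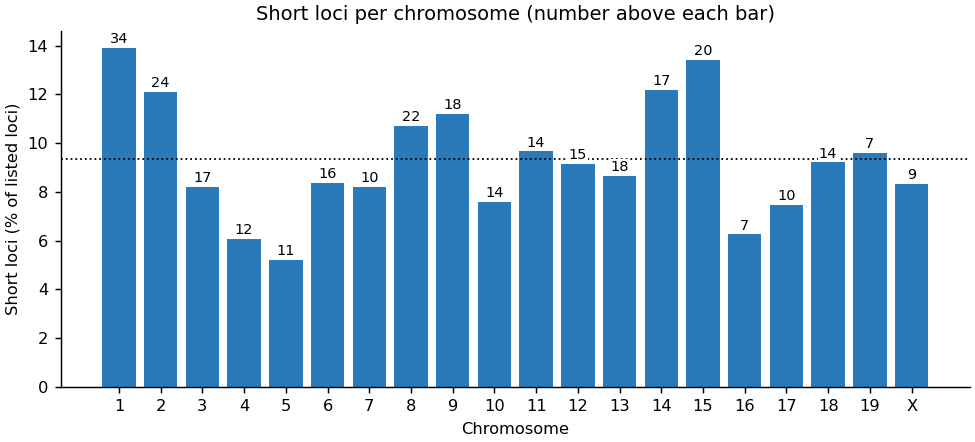
Share of listed loci on each chromosome that are short loci, in percent, with their number above each bar and the share over all chromosomes (9.34%) as a dotted line. Chromosomes 1, 15, 14 and 2 lie highest and chromosomes 5 and 4 lowest.

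Short loci were about as isolated as longer ones. The nearest other listed locus was at a median distance of 193361 bp from a short locus and 182826 bp from a longer one, and 10.7% and 10.8% respectively had one within 10000 bp. No short locus overlapped another listed locus, and neither did any longer locus whose coordinates were listed once. None of the 33 neighbours within 10000 bp was itself a short locus, and the neighbour had the higher mean level in 27 of 33 pairs. The median level was 39.1 RPKM for these short loci and 116 RPKM for their neighbours. The log2 differences of short locus and neighbour had the same sign in 16 of the 33 pairs. Longer loci had higher levels in general, with a median of mean levels of 74.3 RPKM against 41.5 RPKM for all short loci. Some neighbours, XLOC_006393 among them, share their coordinates with another row, and the level used is that of 1 row. XLOC_017424 lies 3868 bp from XLOC_017423 (8361987 to 8374990), which had 487, 559 and 508 RPKM in control and 478, 448 and 421 RPKM in microgravity. That neighbour had a log2 difference of -0.20, opposite to the 0.87 of XLOC_017424. The closest pair was XLOC_014756 on chromosome 18, which starts 48 bp past the end of XLOC_015103, with mean levels of 39.1 and 69.9 RPKM.

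A group of 4 listed loci on chromosome 6, singled out after the positions were seen, showed how levels can change over a short distance. XLOC_025734 (78966673 to 78967919) had a mean of 36.6 RPKM and lay 661 bp from XLOC_025735, at 1049.6 RPKM. Further along, XLOC_025197 (78981872 to 78983239) had a mean of 727 RPKM and lay 765 bp from XLOC_026355, at 883 RPKM. XLOC_025197 had 616, 644 and 583 RPKM in control and 966, 862 and 692 RPKM in microgravity, without overlap, and a log2 difference of 0.44 (limma, unadjusted p = 0.0174, adjusted p = 0.609). Its neighbour had a log2 difference of 0.074. Whether such pairs are parts of a single transcript is not given in the tables.

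The limit of 2000 bp fell in a continuous range of spans. The 3 loci just inside it, XLOC_019150 and XLOC_016875 (1980 bp each) and XLOC_022831 (1994 bp), had mean levels of 82.8, 35.1 and 21.9 RPKM. The 3 just outside, XLOC_001075 (2000 bp), XLOC_025932 (2002 bp) and XLOC_030528 (2005 bp), had 83.7, 36.1 and 39.9 RPKM.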

How the data were processed

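Zygote libraries, 3 control and 3 microgravity, were grouped by their titles. The deposited values are RPKM, per the file headers, computed by the authors on mm9, per the submitters' processing notes. For the aligner, the assembler and the counting the sources used here name nothing. Spans were parsed from the deposited coordinates. The annotation at hand was of another build, so no gene was assigned.

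The filter kept every locus that reached 1 RPKM in 3 or more libraries. log2(RPKM + 1) was fitted by limma 3.58.1 (R 4.3.3), with trend and robust moderation, two-sided, with Benjamini-Hochberg adjustment over 3301 loci and a threshold of 0.05. The model was also run on simulated normal values with its own SDs, which need not match the real values at loci with zeros. No result here rests on that run. Summaries used Python 3.11.15 with pandas 2.3.3, and figures matplotlib 3.10.9. RPKM times span was searched for whole reads: the strongest common step reached 0.212 to 0.341 of the value exact multiples give (1), so reads were not recovered and no counting interval is given.

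Alternatives were other pseudocounts, filters, moderation, scaling, library weights, a replicate block, span limits and leaving out single libraries. Named loci are the 10 most abundant, the 6 of smallest p per direction, the 5 shortest, the 5 with most zeros (ties by lower mean), the 5 with the largest spread and 3 on each side of the limit. The members and lists were chosen with earlier results of these data known.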

Additional observations from a re-analysis of the deposited data

How the results depend on the processing

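The count of 0 called short loci held under every alternative run (lowest adjusted p 0.261 to 0.680, limma). Leaving out single libraries gave 12 to 17 short loci with higher values at unadjusted p under 0.05 (16 in the report) and 7 to 16 with lower values (12). Together they made up 7.17% to 9.8% of short loci tested, against 5.76% to 9.38% of all loci. Of the 28 in the report, 16 to 18 were found again with a library left out and 20 to 28 under the other model settings. The 12 loci named for their p kept their sign in all 15 of these alternatives. They were chosen by p in these same values. Where the groups did not overlap, leaving out a library could not turn the sign, so this adds no support. Adding the replicate number as a block gave 0 calls, 16 higher and 13 lower (together 9.42%, against 7.72% of all loci). Deviations of libraries sharing a number correlated at 0.0171, -0.00366 and -0.0168, and no pairing was assumed. Without single libraries the median log2 difference was -0.0246 to 0.066 (0.0186 in the report). Loci bounded within 2-fold numbered 75 to 87 (103). Non-overlapping loci numbered 66 to 87 (46), that is, 21.4% to 28.2% of short loci tested, against 22.7% to 26.7% of all loci. The difference in the share of summed RPKM was -0.421 to -0.129 and the median level 40.1 to 42.7 RPKM. Loci with a zero numbered 27 to 32 (34), and the median SD was 0.458 to 0.522.

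Other span limits change the members. Of 68 loci tested under 1000 bp, 4 were higher and 5 lower at unadjusted p under 0.05 (limma, together 13.2%, all loci 7.91%). Another count gave 16 bounded and 14 non-overlapping loci. Zeros occurred at 16, the median was 43.4 RPKM and the share difference 0.103 percentage points. Over all 3301 loci tested, 4.82% were higher, 3.09% lower, 48% bounded and 13.6% non-overlapping. Of 624 tested under 3000 bp, 31 were higher, 26 lower, 225 bounded and 101 non-overlapping, with a median of 48.3 RPKM. The share difference was 0.459. The sign of the share difference thus turned with the limit. Loci under 5 RPKM in some library numbered 49. With depth unknown, no part of the spread can be assigned to counting error.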

Other observations

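Of the 5 short loci listed at 0 in exactly 2 libraries, 3 had both zeros in libraries of the same replicate number in the 2 groups: XLOC_015837 (replicate 1), XLOC_015140 (replicate 2) and XLOC_000904 (replicate 3). Over all listed loci with exactly 2 zeros, these short loci included, this held for 5 of 27. XLOC_015140 on chromosome 18 had 17.8, 0 and 6.41 RPKM in control replicates 1 to 3 and 34.6, 0 and 15.1 RPKM in microgravity replicates 1 to 3. The pattern was noticed after the values were seen and was not tested.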
